A study of Mus musculus with 6 samples.

Results

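The farnesoid X receptor FXR (gene Nr1h4), its dimer partner RXRalpha (Rxra), the small heterodimer partner SHP (Nr0b2) and the liver receptor homolog LRH-1 (Nr5a2) were followed in mouse hepatocytes given the FXR agonist GW4064. The genes were taken by symbol from the probe sets that the platform annotation pairs with exactly 1 symbol, which gave 4 genes of 22180. Each had 1 such probe set, and no probe set with several symbols carried any of the 4. The hepatocytes were primary cells isolated from wild-type adult male C57Bl/6 mice and cultured in William's medium without serum. The treated group received 2 µM GW4064 for 4 h and the control group DMSO, the solvent, for the same time. Each group holds 3 arrays, and the design text names 3 independent hepatocyte preparations. RNA was measured on Affymetrix MoGene-2_0-st arrays, and all levels below are RMA log2 intensities as deposited.

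FXR is the nuclear receptor that senses bile acids, and it binds DNA as a heterodimer with RXRalpha, most often at an inverted repeat of a hexamer with 1 base between the copies (IR-1). In the liver FXR switches on Nr0b2. SHP has no DNA-binding domain and represses other nuclear receptors by direct contact, LRH-1 above all, and so lowers bile acid synthesis driven by LRH-1. LRH-1 binds DNA as a monomer and is also known to act on the Nr0b2 promoter, which closes a feedback loop.

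The promoter sequences of the gene that rose and of the receptor gene with the largest decrease of the 4 are shown because FXR, LRH-1 and RXRalpha act through short motifs of this kind. Both come from RefSeq (build GRCm38.p6), run 5′ to 3′ on the gene's strand and end at the base before an annotated start site. Capitals mark matches to the motifs searched, on either strand.

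Nr0b2, chr4:133553126-133553375, plus strand: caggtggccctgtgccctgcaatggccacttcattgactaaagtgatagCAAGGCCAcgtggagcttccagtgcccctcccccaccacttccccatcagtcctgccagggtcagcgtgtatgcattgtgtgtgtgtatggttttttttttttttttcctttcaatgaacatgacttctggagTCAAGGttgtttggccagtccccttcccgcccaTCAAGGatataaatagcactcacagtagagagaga

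Nr1h4, chr10:89506659-89506908, minus strand: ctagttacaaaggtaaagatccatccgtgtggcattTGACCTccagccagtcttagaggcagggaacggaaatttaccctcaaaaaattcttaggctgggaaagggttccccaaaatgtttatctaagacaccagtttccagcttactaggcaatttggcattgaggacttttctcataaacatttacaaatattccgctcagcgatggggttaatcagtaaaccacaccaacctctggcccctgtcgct

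The motifs were the hexamer AGGTCA, the IR-1 element AGGTCANTGACCT (exact, or with up to 2 mismatches outside the N), and the LRH-1 type elements CAAGGTCA and CAAGGNCA, each on both strands. The first lies inside the second and the third, and the fourth includes the third. The Nr0b2 window held 1 match to CAAGGNCA, as CAAGGCCA starting 201 bases before the start site. Of 32851 RefSeq windows of 250 bases, 5.53% held that motif. The shorter core TCAAGG, searched after the sequence had been seen, matched the Nr0b2 window at 68 and 35 bases before the start site, and 12.5% of all windows held it. The Nr1h4 window held AGGTCA once, on the opposite strand 214 bases before the start site, as did 14.0% of all windows. Nr5a2 and Rxra have 2 windows each, of which 1 for Nr5a2 held AGGTCA once and 1 for Rxra held it 2 times, while the remaining windows held none of the motifs. No window of the 4 genes held the IR-1 element with up to 2 mismatches, against 0.959% of all windows. These matches describe letters only, and sequence farther from the start sites was not used here.

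Nr0b2 rose and the other 3 genes did not pass the test. With adjusted p under 0.05 as the threshold (limma, Benjamini-Hochberg over 22180 genes), 1 of the 4 genes was called higher, where 0.0496% of all genes were. None of the 4 was called lower, as was true of all genes (0%), and 678 genes (3.06%) were lower at an unadjusted p under 0.05 against 577 (2.60%) higher. At that unadjusted threshold Nr0b2 was higher and Nr1h4 lower. The fit that treats same-numbered arrays as pairs called 16 genes higher (0.0721%) and 2 lower (0.00902%), and of the 4 genes again Nr0b2 alone. Groups of 3 arrays did not overlap, with GW4064 above DMSO, for 4.58% of all genes and for Nr0b2, and with GW4064 below DMSO for 6.19% of all genes and for Nr1h4 and Rxra. In whole-culture RNA, fewer cells carrying a transcript and less of it per cell cannot be told apart.

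**Figure D1:**
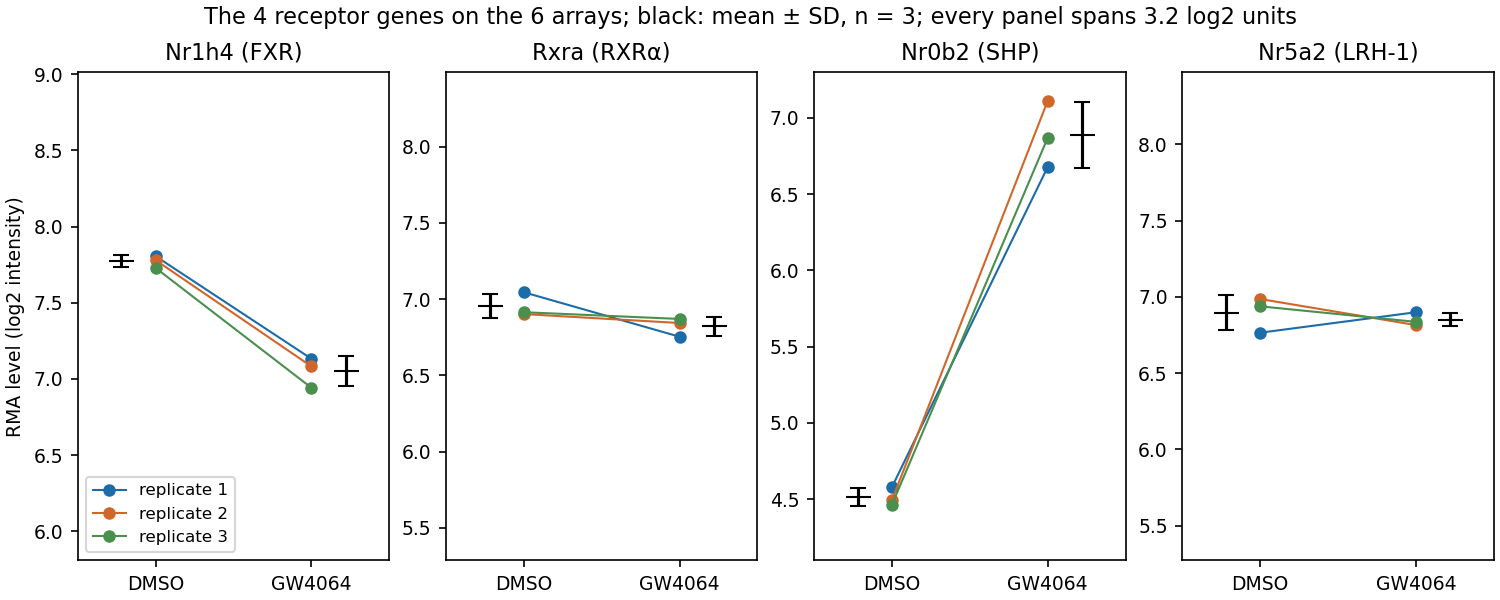
RMA log2 intensity (vertical axis) of Nr1h4, Rxra, Nr0b2 and Nr5a2 on each of the 6 arrays, DMSO on the left and GW4064 on the right of each panel; coloured lines join arrays with the same replicate number, and black marks give the mean ± SD of 3 arrays. All 3 lines climb from about 4.51 to 6.89 for Nr0b2 and run nearly in parallel from 7.77 down to 7.05 for Nr1h4. The lines of Rxra and Nr5a2 stay close to level. Lines cross in every panel except that of Nr1h4.

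Nr1h4 encodes the receptor that GW4064 binds. Its level (probe set 17244070) was 7.81, 7.78 and 7.73 on DMSO arrays 1, 2 and 3, and 7.13, 7.08 and 6.94 on the GW4064 arrays of the same numbers. The groups were separated by a gap of 0.60, and the arrays within a group lay much closer together than that, with an SD of 0.04 in DMSO and 0.10 with GW4064. The log2 change was -0.72 (SE 0.09, 95% interval -0.93 to -0.51), a level 39.2% lower with an interval of 29.6% to 47.5% lower. The differences in the same-numbered pairs were -0.67, -0.70 and -0.79, a spread of 0.11. The limma adjusted p was 0.0535, just outside the threshold, and 0.0618 with the replicate number as a block. Nr1h4 ranked 13 among all genes by p, and no lowered gene had a smaller one without the block. With the block 4 lowered genes, itself included, had a p at or below its own. In size, 13 genes including Nr1h4 had a decrease at least as large.

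The call on Nr1h4 depended on the processing although its size did not. It passed with a mean-variance trend in limma (adjusted p = 0.0282), with a robust variance prior (0.0498) and without genes under the median level (0.0434). It missed in the other settings. With arrays or pairs left out its log2 change stayed between -0.76 and -0.66, at adjusted p of 0.187 to 0.795 without the block and 0.121 to 0.470 with the block and a pair left out.

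Rxra encodes a dimer partner that FXR shares with many other nuclear receptors. Its level (probe set 17368550) was 7.04, 6.90 and 6.91 on the DMSO arrays and 6.75, 6.84 and 6.87 on the GW4064 arrays. Every GW4064 array lay below every DMSO array, but the gap was only 0.03. The log2 change was -0.13 (SE 0.09, 95% interval -0.34 to 0.08; limma adjusted p = 0.963), that is 8.71% lower with an interval from 21.1% lower to 5.61% higher. Pair 1 gave -0.29 and pairs 2 and 3 gave -0.06 and -0.04, so most of the mean difference came from the arrays numbered 1. Without that pair the change was -0.05. Of all genes, 29.8% had a change at least as large in either direction.

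Nr0b2 encodes SHP, the repressor that FXR induces. Its level (probe set 17419622) was 4.58, 4.49 and 4.46 on the DMSO arrays and 6.68, 7.11 and 6.87 on the GW4064 arrays. The lowest GW4064 array lay 2.10 above the highest DMSO array, and the spread among treated arrays (SD 0.22) was wider than among controls (SD 0.06). The log2 change was 2.37 (SE 0.12, 95% interval 2.10 to 2.65; limma adjusted p = 1.17e-04, 0.00420 with the block). As a ratio this was 5.18-fold, with 4.28-fold, 6.14-fold and 5.30-fold in pairs 1, 2 and 3. By p it ranked 2 among all genes, and 2 genes, itself and Abcb11, rose at least as far. With arrays or pairs left out, its log2 change without the block ran from 2.25 to 2.51 at adjusted p of 3.24e-04 to 0.0270. The call was lost in 1 setting, chosen after looking at the data, in which the block was fitted over all 41345 probe sets (adjusted p = 0.179).

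Nr5a2 encodes LRH-1, the receptor on which SHP acts at bile acid synthesis genes. Its level (probe set 17227515) was 6.77, 6.99 and 6.94 on the DMSO arrays and 6.90, 6.82 and 6.84 on the GW4064 arrays. The treated arrays all lay inside the range of the controls. The log2 change was -0.05 (SE 0.10, 95% interval -0.27 to 0.17; limma adjusted p = 0.998), which places the level between 16.8% lower and 12.8% higher. The pairs differed in sign, 0.13 in pair 1 against -0.17 and -0.10 in pairs 2 and 3. Without pair 2 the change was 0.02, the other sign. The interval leaves room for changes of that size, and a missing call does not show that Nr5a2 was unaltered.

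The responses of the 4 genes were set against each other through the log2 difference between 2 genes on the same array, in 6 gene pairs. An exact two-sided permutation test over 3 against 3 arrays cannot give a p below 0.1, so no difference could pass 0.05. Relative to Rxra, Nr1h4 was lower by 0.38, 0.64 and 0.74 in pairs 1, 2 and 3, a mean of -0.59 in the change of Nr1h4 minus that of Rxra (permutation p = 0.1, adjusted 0.12). The receptor gene thus had the larger decrease in each same-numbered pair. Relative to Nr5a2, the change of Nr1h4 was -0.67 (exact p = 0.1, adjusted 0.12), and relative to Nr0b2 it was -3.09 (exact p = 0.1, adjusted 0.12). The change of Nr0b2 exceeded that of Nr5a2 by 2.42 and that of Rxra by 2.51, again at the smallest p the test can give. Rxra and Nr5a2 were the 1 pair whose groups overlapped, with a difference in change of -0.09 (permutation p = 0.6) and pair values of -0.43, 0.11 and 0.06.

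**Figure D2:**
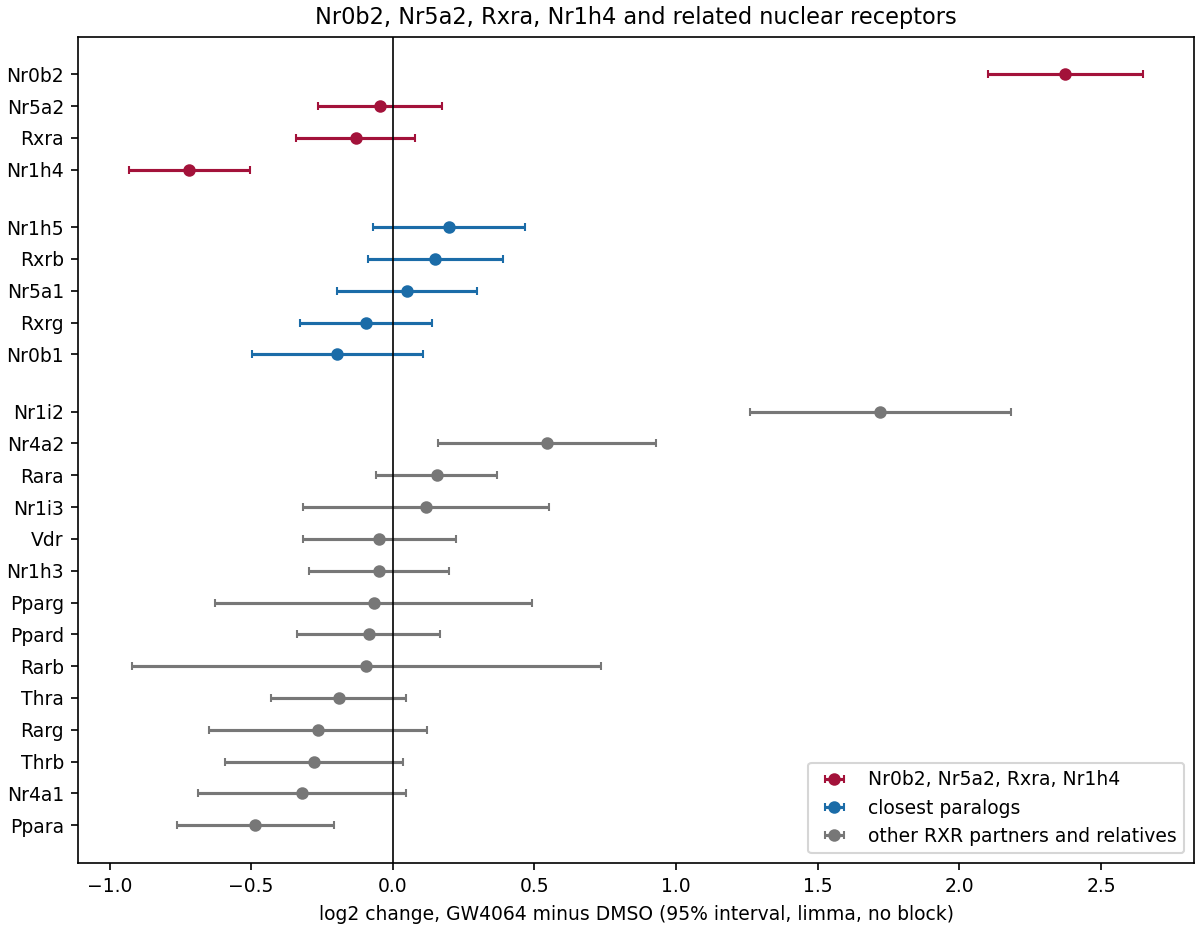
Log2 change with GW4064 minus DMSO (horizontal axis) and its 95% limma interval for Nr0b2, Nr5a2, Rxra and Nr1h4 (red), their closest paralogs (blue) and further RXR partners or relatives (grey), 3 arrays per group. Nr0b2 at 2.37 and Nr1i2 at 1.72 lie far to the right, Nr1h4 at -0.72 lies farthest to the left, and the intervals of all 5 paralogs cross 0.

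The closest paralogs were Nr1h5 (FXRbeta, a lanosterol-sensing receptor in mice), Rxrb and Rxrg (the other RXR genes), Nr0b1 (DAX-1, the relative of SHP) and Nr5a1 (SF-1, the relative of LRH-1). None of the 5 passed the test at any threshold used, and their groups all overlapped. Nr0b1 had a log2 change of -0.20 (SE 0.13) against 2.37 for Nr0b2, and Nr1h5 had 0.20 (SE 0.12) against -0.72 for Nr1h4. Both stood low on the array scale, where a change may not be measurable. Mean levels in DMSO and with GW4064 were 2.27 and 2.07 for Nr0b1 and 2.18 and 2.38 for Nr1h5. Rxrb had 0.15 (SE 0.11) and was higher in all 3 pairs, where Rxra was lower in all 3. Rxrg had -0.10 (SE 0.10) and was lower in all 3 pairs, and Nr5a1 had 0.05 (SE 0.11). Mean levels in DMSO and with GW4064 were 3.71 and 3.62 for Rxrg and 3.95 and 4.00 for Nr5a1. These also lay under the array medians over genes, 4.19 to 4.24, so the same limit may hold for them. The differences between paralogs were not tested.

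Of 14 measured RXR partners and related orphan receptors, 1 was called higher (0.0496% of all genes) and none lower (0%), with 4 higher and 10 lower in sign and a median log2 change of -0.08. Over all genes 44.6% were higher in sign and the median was -0.02. The called gene was Nr1i2, which encodes the xenobiotic receptor PXR. Its level was 6.38, 7.31 and 6.87 on the DMSO arrays and 8.44, 8.71 and 8.58 on the GW4064 arrays, a log2 change of 1.72 (SE 0.20, limma adjusted p = 0.0352, 0.0288 with the block). Without the block the call was lost with any array or pair left out other than DMSO replicate 2 (adjusted p = 0.0108 to 0.588). It was also lost without the block over all probe sets on all 6 arrays (0.322). With the block it was kept without pair 1 (0.0135) and without pair 2 (0.0211) and lost without pair 3 (0.137) and over all probe sets (0.413). Ppara, the fatty acid receptor, had -0.48 (SE 0.12, limma adjusted p = 0.601) and was lower in all 3 pairs. Nr4a2, an orphan receptor of the immediate early class, had 0.54 (SE 0.17, limma adjusted p = 0.751), with 0.73, 0.07 and 0.82 in pairs 1, 2 and 3. Of the 14, groups did not overlap for 2 on the higher and 3 on the lower side, against 4.58% and 6.19% of all genes.

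Among 19 measured transcription factors that act on these receptor genes in hepatocytes, none was called. In sign 8 were higher and 11 lower, with a median log2 change of -0.05, and at an unadjusted p under 0.05 the counts were 2 and 1, against 2.60% higher and 3.06% lower of all genes. Those 3 were Hnf4a, the nuclear receptor that maintains hepatocyte gene expression, with 0.55 (SE 0.12, limma adjusted p = 0.393), Nr2f2 (COUP-TFII), with 0.31 (SE 0.11), and the clock factor Arntl, with -0.38 (SE 0.12). Each of the 3 had groups that did not overlap, as had Clock on the lower side with -0.13 (SE 0.09). Of the 19, groups did not overlap for 2 on the higher and 2 on the lower side, against 4.58% and 6.19% of all genes.

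Coregulators that FXR, LRH-1 and SHP recruit were divided by function. Of 15 coactivators none was called, 12 were lower in sign and the median log2 change was -0.10, against 12286 of 22180 genes lower in sign and a median of -0.02 over all genes. Ppargc1a, a coactivator of FXR and LRH-1 that fasting induces, had the largest decrease of these, -0.52 (SE 0.22, limma adjusted p = 0.863). With the block its SE was 0.10 and its limma adjusted p 0.247, still no call. It was lower in all 3 pairs, by 0.62, 0.30 and 0.65, but its groups overlapped. Its relative Ppargc1b had -0.27 (SE 0.14), and Ncoa3, of the p160 family, -0.13 (SE 0.09). Groups did not overlap for 3 of the 15 on the lower side (Ncoa3, Crebbp and Ncoa6) and for none on the higher. Of all genes, 6.19% and 4.58% did so.

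Of 16 measured corepressor genes none was called, 10 were higher and 6 lower in sign, and the median log2 change was 0.02. Nrip1, which encodes the ligand-dependent corepressor RIP140, had 0.53 (SE 0.13, limma adjusted p = 0.534) and was higher in all 3 pairs. Lcor, a second ligand-dependent corepressor, had 0.35 (SE 0.09, adjusted p = 0.638), and Tbl1xr1, of the NCoR complex, had 0.16 (SE 0.09). The groups of these 3 genes did not overlap, which held on the higher side for 4.58% of all genes and for 4 of the 16. Of 8 enzymes known to modify FXR or SHP protein, none was called or passed an unadjusted p of 0.05. Setd7, a methyltransferase, had the smallest p, with -0.16 (SE 0.09), followed by the ubiquitin ligase Mdm2 with -0.13 (SE 0.12) and the kinase Prkca with 0.11 (SE 0.12).

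**Figure D3:**
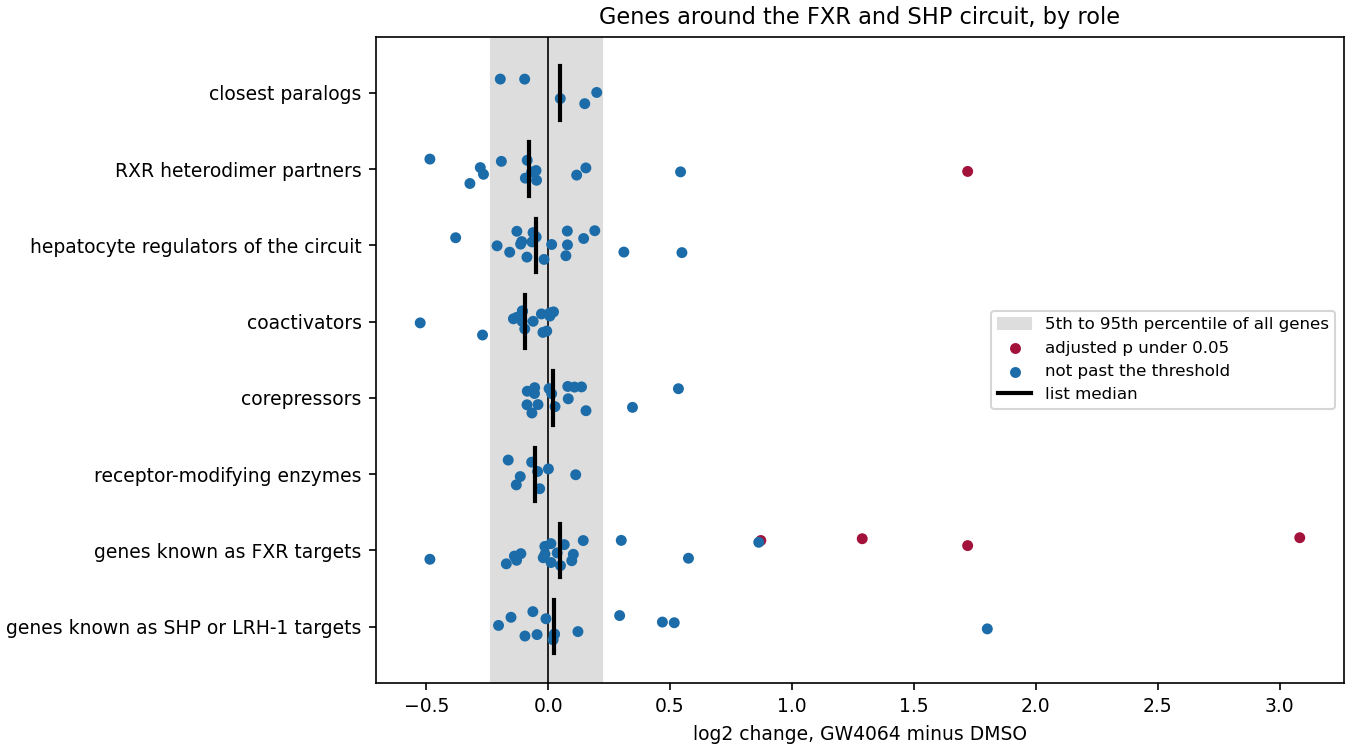
Log2 change with GW4064 minus DMSO (horizontal axis) of single genes in 8 lists arranged by role (points), with list medians (black bars) and the 5th to 95th percentile of all genes (grey, -0.23 to 0.22). The called genes (red) are 4 FXR targets between 0.87 and 3.08, of which Nr1i2 appears again among the RXR partners, and list medians lie between -0.10 and 0.05.

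Downstream of FXR, 4 of 23 measured genes known as its targets were called higher (0.0496% of all genes) and none lower (0%), 15 being higher in sign and the median log2 change 0.05. At an unadjusted p under 0.05, 7 were higher and 1 lower, against 2.60% and 3.06% of all genes. The lower gene was Ppara, named above among the RXR partners. Slc51a stood low on the array scale, with means of 2.73 in DMSO and 2.88 with GW4064, and Slc51b was not measured. The target list was compiled with earlier results of these data known and is no independent evidence of its direction. The called genes were Abcb11, the bile salt export pump, with a log2 change of 3.08 (SE 0.13), Abcb4, the phospholipid exporter, with 1.29 (SE 0.15), Insig2, which retains SREBP in the endoplasmic reticulum, with 0.87 (SE 0.09), and Nr1i2. The limma adjusted p of these 4 ran from 3.70e-05 to 0.0352. In the fit without the block, Abcb11 kept its call whichever array or pair was left out (adjusted p = 1.83e-04 to 0.00940), whereas Insig2 lost it each time (0.0734 to 0.636) and Abcb4 each time except without DMSO replicate 3 (0.0405 to 0.731). The rise of Nr0b2 was smallest in pair 1 and that of Insig2 in pair 3, with Insig2 at 0.86, 0.95 and 0.80 in pairs 1, 2 and 3.

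Downstream of SHP and LRH-1, none of 14 measured targets was called without the block, 8 were higher and 6 lower in sign, and the median log2 change was 0.02. Cyp7a1, the first enzyme of bile acid synthesis and the classical target of LRH-1 and SHP, was at 1.92, 2.35 and 2.38 on the DMSO arrays and 2.19, 2.19 and 2.08 on the GW4064 arrays. The treated values lay inside the control range, and at this low level on the array scale a further decrease may not be measurable. Cyp8b1, the sterol hydroxylase that sets the cholic acid share, had -0.20 (SE 0.19) and pair values of -0.45, -0.32 and 0.16. At an unadjusted p under 0.05, 4 targets were higher and none lower, against 2.60% and 3.06% of all genes. They were Abcg5 and Abcg8, the partner subunits of the sterol exporter that LRH-1 activates, with 0.47 (SE 0.13) and 0.29 (SE 0.10), the fatty acid synthase gene Fasn with 0.52 (SE 0.17), and the gluconeogenic gene Pck1 with 1.80 (SE 0.53, limma adjusted p = 0.689). With the block Pck1 was called (adjusted p = 0.0288), the 1 call in this list that the block added. That call was lost in the blocked fit without pair 3 (0.0970) and over all probe sets (0.413).

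The genes whose values followed each receptor gene most closely were found over the 6 arrays by Pearson's r among 17304 other named genes, as a description in which treatment and replicate number are shared by all genes. Nr0b2 was most like Insig2 (r = 0.993), Ldlrad4, a membrane inhibitor of TGF-beta signalling (0.992), and Abcb11 (0.985). Nr1h4 was most like Gpr52, an orphan G protein-coupled receptor (r = 0.994), Ddx60, an interferon-inducible helicase (0.994), and the pseudogene Ptma-ps2 (0.989). Rxra was most like Mtss2 (0.987), Gpr20 (0.982) and Epb41l5 (0.981), and Nr5a2 was most like Zfp358 (0.999), Stat5a (0.988) and Mrps36 (0.982). Of the 12, Insig2 and Abcb11 were the 2 called genes. An r above 0.95 was reached by 33 genes with Nr0b2, 55 with Nr1h4, 41 with Rxra and 18 with Nr5a2.

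The cultures carried the RNA of hepatocytes. Of 9 measured hepatocyte markers none was called, and their mean level was 10.04 to 10.09 on the DMSO arrays and 9.995 to 10.08 on the GW4064 arrays. In sign 3 were higher and 6 lower. Hnf4a, named above with 0.55, was the 1 past an unadjusted limma p of 0.05, as were 2.60% of all genes on the higher side. It was also the 1 whose groups did not overlap, as for 4.58% of all genes on that side. Alb stood at 12.85 ± 0.04 and 12.82 ± 0.02 (SD, n = 3 each). Of the 21 markers of other liver cells, none was called. The 6 Kupffer cell and leukocyte markers averaged 4.45 to 4.59 in DMSO and 4.30 to 4.55 with GW4064, the 6 stellate markers 4.13 to 4.20 and 4.06 to 4.30, the 5 endothelial markers 4.22 to 4.55 and 4.23 to 4.49, and the 4 cholangiocyte markers 4.85 to 5.07 and 4.99 to 5.22. Single markers of other cells differed widely in DMSO. Clec4f was at 3.90 ± 0.19 and Epcam at 2.66 ± 0.06. Cd68 stood at 9.39 ± 0.77, Sox9 at 7.31 ± 0.25, Acta2 at 6.39 ± 0.07 and Lyve1 at 5.98 ± 0.41. The hepatocyte marker Asgr1, at 5.21 ± 0.46 in DMSO, lay below Acta2 and Lyve1. All 4 cholangiocyte markers were higher in sign, led by Sox9 with 0.45 (SE 0.17, limma adjusted p = 0.858), a factor that hepatocytes can also express. The part of these markers in the values of Nr1h4 and Nr0b2 was not tested.

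**Figure D4:**
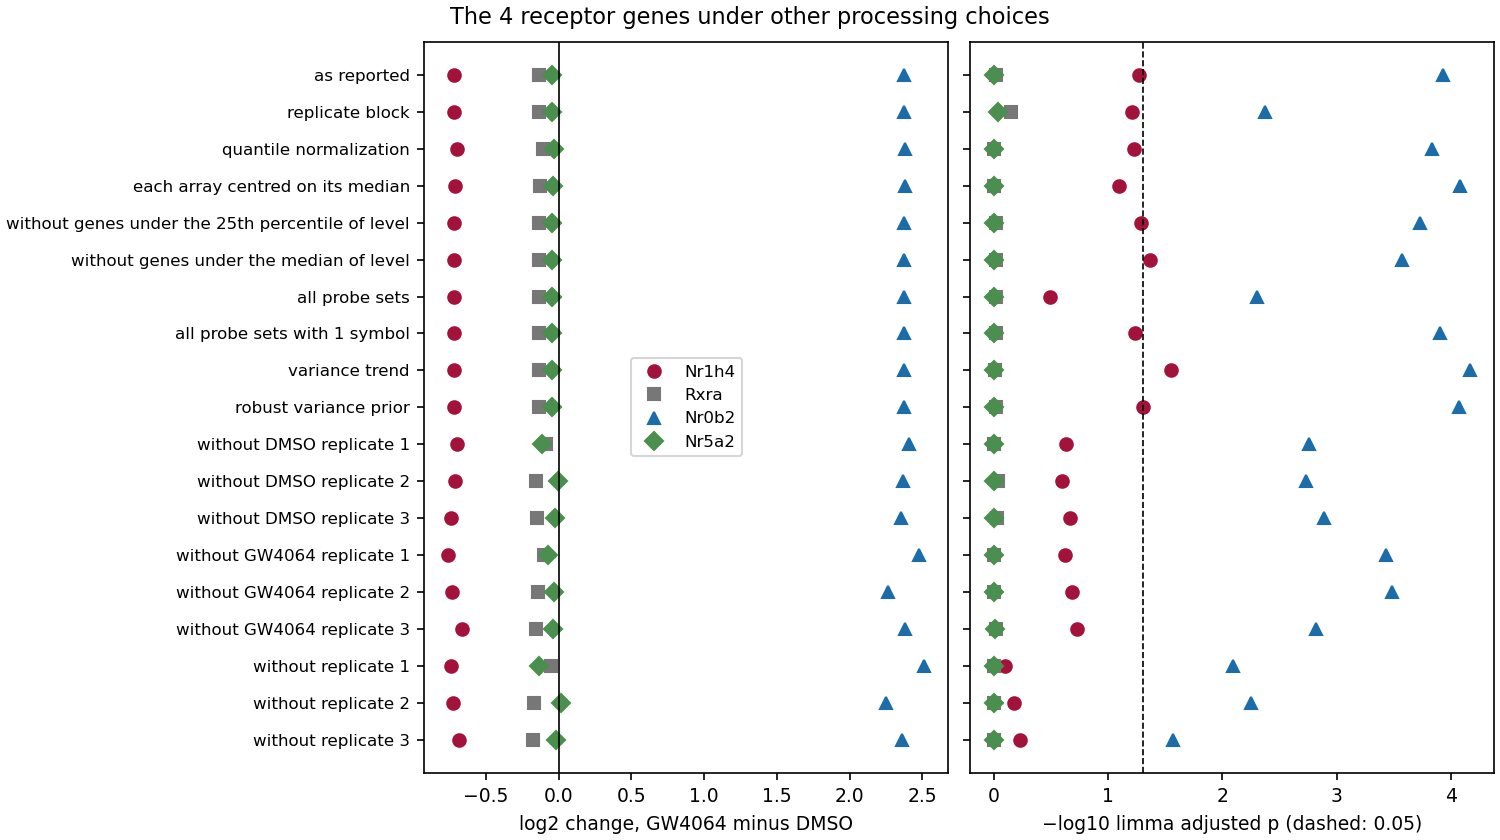
Log2 change (left) and −log10 of the limma adjusted p (right, dashed line at 0.05) of Nr1h4, Rxra, Nr0b2 and Nr5a2 in the reported fit and under the alternatives named on the vertical axis; settings that join the block with another choice are not drawn. Nr0b2 is right of the dashed line in each setting drawn, Nr1h4 is right of it in 3 and left of it in the others, farthest without pair 1 (adjusted p = 0.795), and Rxra and Nr5a2 stay near 0 in both panels.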

How the data were processed

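The series holds 6 arrays, 3 per group, and the titles gave each its group and replicate number. Values were deposited as a log2 intensity for each probe set. RMA and Partek are named in the submitters' processing notes, without versions, and the base was taken from the range of 0.94 to 13.07. RMA draws arrays towards 1 distribution, and array medians differed by at most 0.053. Of 41345 probe sets, 23521 had exactly 1 symbol, and the one with the highest mean was kept per gene, giving 22180 genes. The 4 Entrez identifiers were all found in RefSeq. Differences were fitted with limma 3.58.1 (lmFit, eBayes) in R 4.3.3, without block or filter and with Benjamini-Hochberg adjustment over all genes, and the code was tested on simulated data.

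Differences between genes used exact permutation tests (scipy 1.17.1). Correlations of same-numbered arrays' deviations from the group means were 0.26, 0.34 and 0.45, above the 0.1 required of each. The numbers were therefore used for pair differences and for the blocked fit. Limma values not marked as blocked come from the fit without the block, whose SE can be larger. No label says what a number marks. A blocked value is printed where it bears on a call, and for Ppargc1a. The 4 genes and all lists were chosen with earlier results of these data known. Named list genes are those called and the 3 with the smallest p, and for likeness the 3 with the highest r, without predicted, small-RNA and receptor-cluster genes. Other genes were named after their values were seen. Listed genes with no probe set of their own were left out. Alternatives were the replicate block, quantile normalization, median centring, filters on dim genes, other probe set choices, other variance models and arrays or pairs left out. Protein sequences were not used here.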

Additional observations from a re-analysis of the deposited data

How the results depend on the processing

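Nr0b2 kept its direction in all 23 settings and its call in 22, the exception being the replicate block over all probe sets (log2 change 2.37, adjusted p = 0.179). Nr1h4 kept its direction in all 23, with log2 changes of -0.76 to -0.66, and passed in 3 with -0.72. Rxra stayed below 0 at -0.18 to -0.05 with no call. Nr5a2 ran from -0.14 to 0.016, the latter without pair 2, with or without the block. The sign of the change of Rxra minus that of Nr5a2 turned without pair 1 (0.085) and without DMSO replicate 1 (0.026); the other 5 gene differences kept theirs. The causes were not tested.

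The number of genes called higher, 11, was 2 to 5 with arrays or pairs left out and no block, where fewer samples entered, 2 over all probe sets, 20 with block and quantile normalization, and 1 with block and all probe sets. With the block and 1 pair left out it was 10, 6 and 4 without pairs 1, 2 and 3. The number called lower, 0, was 0 to 1 with arrays or pairs left out and no block, 1 without genes under the median, with the variance trend and with the robust prior, 2 with the block, also with quantile normalization, and 3 with the block without pair 1. With the replicate block as a sign-flip test over 3 pairs no p can fall below 0.25, which was reached in 5 of 6 gene differences. Settings that join the block with a second choice were added after the data were seen. On all 6 arrays and 1 probe set per gene, the block changed no call on the 4 genes or the listed ones besides Pck1. The number of arrays limits the precision, and signal over background cannot be read from the deposited values.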
